A study of Mus musculus with 4 samples.

Results

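The 10 genes described here belong to glycogen storage, glucose uptake and glucose use, together with *Txnip*, which restrains uptake, and the coactivator gene *Ppargc1a*. They are *Gys1*, *Gbe1*, *Pygb*, *Pygm*, *Ppp1r3c*, *Slc2a1*, *Hk2*, *Ldha*, *Txnip* and *Ppargc1a*, chosen by name among the 22180 genes measured. The cells were primary astrocytes from the cerebral cortex of C57BL/6J pups of postnatal days 1 to 3, from which floating microglia had been shaken off. By the paper's methods, the mixed glia had grown in medium with granulocyte-macrophage colony-stimulating factor (GM-CSF), and a second, longer shaking detached other cells. There were 4 conditions: CRTC3 KO astrocytes with 25 µM forskolin (FSK) for 2 h, CRTC3 KO astrocytes with vehicle (0.1% DMSO), WT astrocytes with FSK, and WT astrocytes with vehicle. The knockout was systemic, so every cell type in the culture lacked CRTC3. How many pups or cultures gave each RNA is not given in the sources used here, nor is whether the vehicle was also left on for the FSK time. Each condition was read on 1 Affymetrix GeneChip mouse 2.0 ST array. There is thus no spread between replicates, and every difference below is a value with no test.

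FSK activates adenylyl cyclase and so raises cAMP, which activates protein kinase A. Protein kinase A switches glycogen phosphorylase on through phosphorylase kinase, and it switches glycogen synthase off. It also phosphorylates the transcription factor CREB, to which CRTC coactivators such as CRTC3 bind at cAMP response elements (CREs). Astrocytes hold most of the glycogen of the brain and break it down to glucose phosphate and lactate. Txnip is an alpha-arrestin that binds thioredoxin and helps to remove the glucose transporter GLUT1 from the cell surface. Its gene is known for a carbohydrate response element, at which MondoA or ChREBP, each paired with Mlx, acts when glucose phosphate is abundant.

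The promoter windows of 3 of the 10 genes are shown as examples of the motifs that these pathways are known to use. Windows of other genes among the 10 bore some of these motifs too, as given below. Each runs from 250 bases before the annotated start to 50 bases after it, from RefSeq on GRCm38.p6, and capitals mark the motif. Those of *Txnip* (chr3:96557707-96558006, plus strand) and of *Ldha* (chr7:46845554-46845853, plus strand) are followed by that of *Ppargc1a* (chr5:51567676-51567975, minus strand). In *Txnip* the capitals mark a pair of CACGAG half-sites 5 bases apart, in *Ldha* 2 E-boxes (CACGTG) and a full CRE (TGACGTCA), and in *Ppargc1a* a CRE half-site (TGACG), which reads as its reverse complement here.
Txnip: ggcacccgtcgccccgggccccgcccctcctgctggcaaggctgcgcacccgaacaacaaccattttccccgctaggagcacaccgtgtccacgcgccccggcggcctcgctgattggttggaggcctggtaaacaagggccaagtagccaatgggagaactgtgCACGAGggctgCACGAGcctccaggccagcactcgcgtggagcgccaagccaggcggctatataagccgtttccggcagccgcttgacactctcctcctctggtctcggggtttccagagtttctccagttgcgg
Ldha: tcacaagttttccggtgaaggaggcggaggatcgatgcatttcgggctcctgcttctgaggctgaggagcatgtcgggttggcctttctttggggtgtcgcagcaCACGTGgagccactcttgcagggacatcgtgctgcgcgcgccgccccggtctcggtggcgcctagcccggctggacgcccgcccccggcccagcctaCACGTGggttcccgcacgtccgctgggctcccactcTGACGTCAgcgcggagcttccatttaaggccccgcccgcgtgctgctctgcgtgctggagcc
Ppargc1a: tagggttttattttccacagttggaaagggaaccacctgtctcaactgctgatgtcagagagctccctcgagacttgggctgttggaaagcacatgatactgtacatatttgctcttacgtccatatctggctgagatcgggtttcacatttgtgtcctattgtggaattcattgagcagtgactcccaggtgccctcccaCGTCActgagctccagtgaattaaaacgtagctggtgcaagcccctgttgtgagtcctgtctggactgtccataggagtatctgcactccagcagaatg
All 10 genes had at least 1 window among the 32851 of the table, *Ldha* 2 of them, and the starts of the *Ldha* and *Ppargc1a* windows lie inside the gene's RefSeq interval. Motifs were searched on both strands. The full CRE was in 1.79% of all windows and in that of 1 of the 10 genes, *Ldha*, where it begins 12 bases before the start. The half-site, which the full CRE holds on both strands, was in 20.8% of all windows and in those of *Pygb*, *Ppargc1a*, *Hk2* and *Ldha*. The E-box was in 7.15% of windows, those of *Ldha* and *Ppp1r3c* among them, and CACGAG in 6.47%, those of *Txnip*, *Gys1* and *Ppp1r3c* among them. The pair in the *Txnip* window begins 85 bases before the start. No other window of the table held 2 copies of CACGAG on the same strand 5 bases apart, and 16 windows (0.0487%) held such a pair of the looser form CACGNG. The pair was chosen for the search after the *Txnip* window had been read. A match is a description of the letters in these windows only.

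The labels were checked on *Crtc3*, the deleted gene. The log2 signal was 5.49 with FSK and 4.92 with vehicle in CRTC3 KO astrocytes, against 8.14 and 7.75 in WT astrocytes. The astrocyte filament gene *Gfap* had log2 signals between 10.97 and 11.49 on the 4 arrays. The cultures also differed in other ways. *Xist*, a noncoding RNA made from the silenced X chromosome of female cells, differed between CRTC3 KO and WT by -4.67 on the FSK arrays and by -4.73 on the vehicle arrays, lower in CRTC3 KO. CRTC3 KO had the higher signal for 9 of 10 astrocyte markers in either treatment (median log2 difference 0.52 with FSK and 0.47 with vehicle). It had the lower signal for all 10 markers of fibroblasts and mural cells (medians -1.07 and -0.88). The log2 of the summed signal of the fibroblast and mural markers was 13.04 and 13.24 in CRTC3 KO (FSK and vehicle), against 14.16 and 14.13 in WT. For the astrocyte markers it was 13.42 and 13.34 in CRTC3 KO and 12.88 and 12.86 in WT. All 10 markers of microglia and macrophages reached the median over gene probe sets, with median differences of 0.29 and 0.22 between CRTC3 KO and WT (FSK and vehicle). The log2 of their summed signal was 13.25 and 13.25 in CRTC3 KO and 13.13 and 13.14 in WT. Transcripts of these cells were thus bright on the 4 arrays, after growth of the mixed glia with GM-CSF and after both shakings. Sums over different genes do not give the share of each cell type. The neuron, oligodendrocyte and endothelial lists had medians between -0.20 and 0.05 for the differences between the genotypes. With FSK, each of the 6 lists had a median response between -0.11 and 0.09 in either genotype. In such bulk RNA, fewer cells of a type and less RNA per cell cannot be told apart, and with 1 array per condition, genotype, pup sex and cell mix cannot be told apart either.

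**Figure D1:**
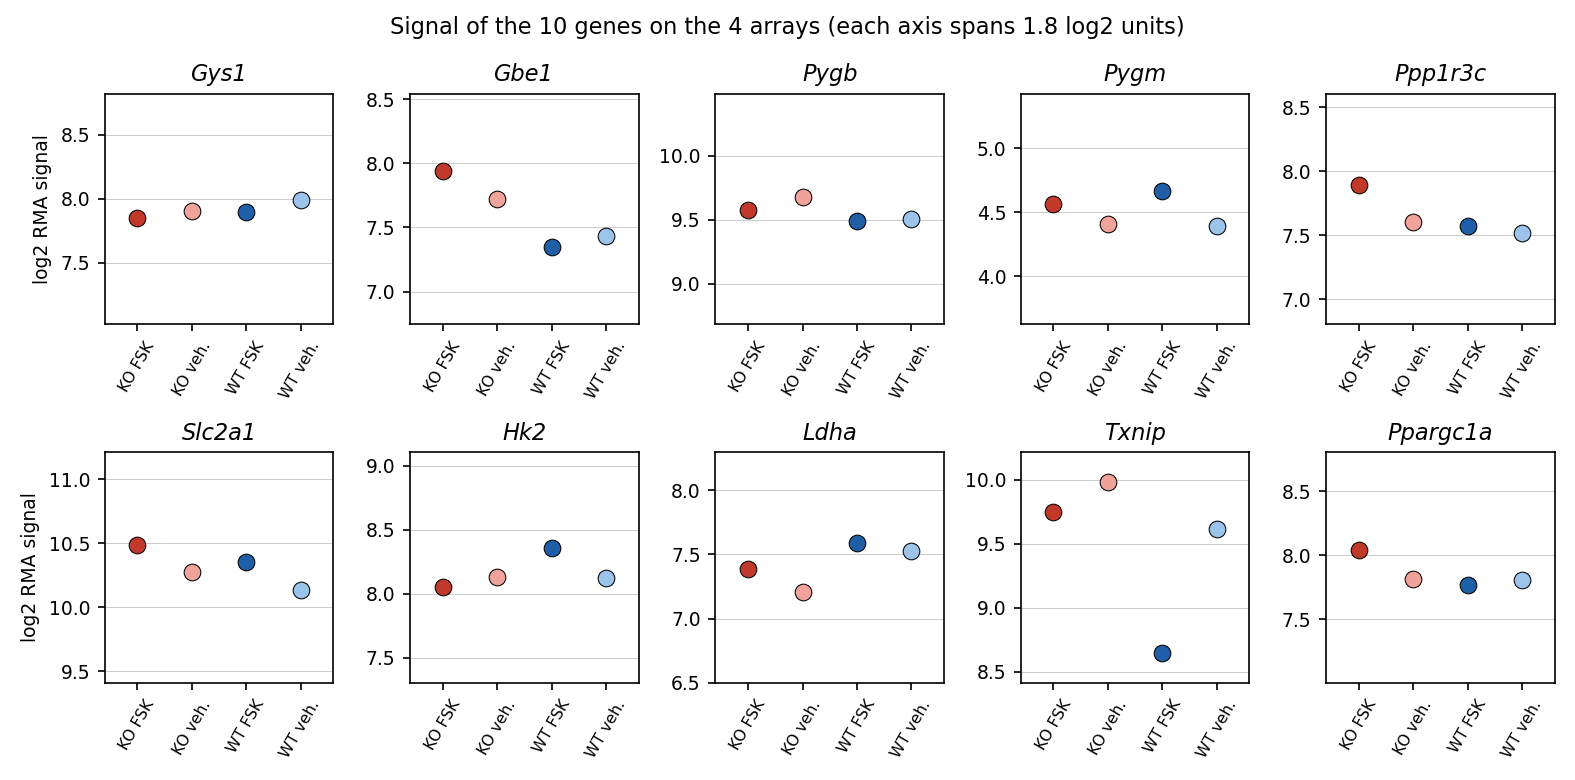
Log2 RMA signal (vertical axes, each spanning the same number of log2 units) of the 10 genes on the 4 arrays, 1 point per array, with CRTC3 KO in red, WT in blue and vehicle in the paler shade. *Txnip* on the WT FSK array, at 8.65, stands apart from its other values of 9.61 to 9.98, whereas *Gys1* spans only 0.14.

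*Txnip* was the gene among the 10 with the widest span over the 4 arrays, 1.33 on the log2 scale. It had a log2 signal of 9.75 with FSK and 9.98 with vehicle in CRTC3 KO astrocytes, against 8.65 with FSK and 9.61 with vehicle in WT astrocytes. The WT FSK array alone was low, and the other 3 lay within 0.37 of each other. With FSK the signal was 1.95-fold lower than with vehicle in WT (log2 response -0.96), the rank of 17 from the lowest of 22180 genes. In CRTC3 KO it was 0.852 times that with vehicle (log2 response -0.23, rank 2300 from the lowest). The response in CRTC3 KO minus that in WT was 0.73, a 1.66-fold difference. Between the genotypes, *Txnip* was 2.14-fold higher in CRTC3 KO with FSK (1.10, rank 38 from the highest) and 1.29-fold higher with vehicle (0.37). The WT FSK array enters 3 of these values, the WT response, the difference with FSK and the difference between the responses, so they are not separate observations.

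To read these values, the differences of all genes serve as a background. A gene was counted as called when it differed by at least 1.5-fold, which is 0.585 on the log2 scale. *Txnip* was the only 1 of the 10 genes called with FSK in WT. It was lower, as were 0.757% of all genes, and 1.23% of all genes were called higher, with 0 of the 10. In CRTC3 KO 0 of the 10 were called with FSK, against 0.514% of all genes called higher and 0.681% called lower. In the difference between the responses, *Txnip* was again the only 1 of the 10, with 2.07% of all genes called higher and 2.92% called lower. The middle 95% of all genes lay between -0.42 and 0.38 for the response in CRTC3 KO and between -0.42 and 0.47 for that in WT, and *Txnip* in WT was the only response of the 10 genes outside these ranges. Over the 10 genes the median response was 0.16 in CRTC3 KO and 0.02 in WT, against -0.01 and -0.00 over all genes.

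A second probe set near *Txnip* behaved otherwise. *Txnip* lies at chr3:96557957-96561857 (GRCm38.p6), inside the interval of the long noncoding RNA gene *Gm15441* at chr3:96555768-96566801, and this probe set is annotated to both. This RefSeq build is used for all gene positions here. The log2 signals of this probe set were 5.82 with FSK and 6.17 with vehicle in CRTC3 KO, against 5.54 and 5.68 in WT. The response was -0.35 in CRTC3 KO and -0.15 in WT, so that the response in CRTC3 KO minus that in WT was -0.20, opposite in sign to the 0.73 of the probe set of *Txnip* alone. Which of the 2 transcripts it reads was not determined, since the strands of the genes and the probes were not compared. By the rule it stands for neither gene, so its values do not count as a second reading of *Txnip*.

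**Figure D2:**
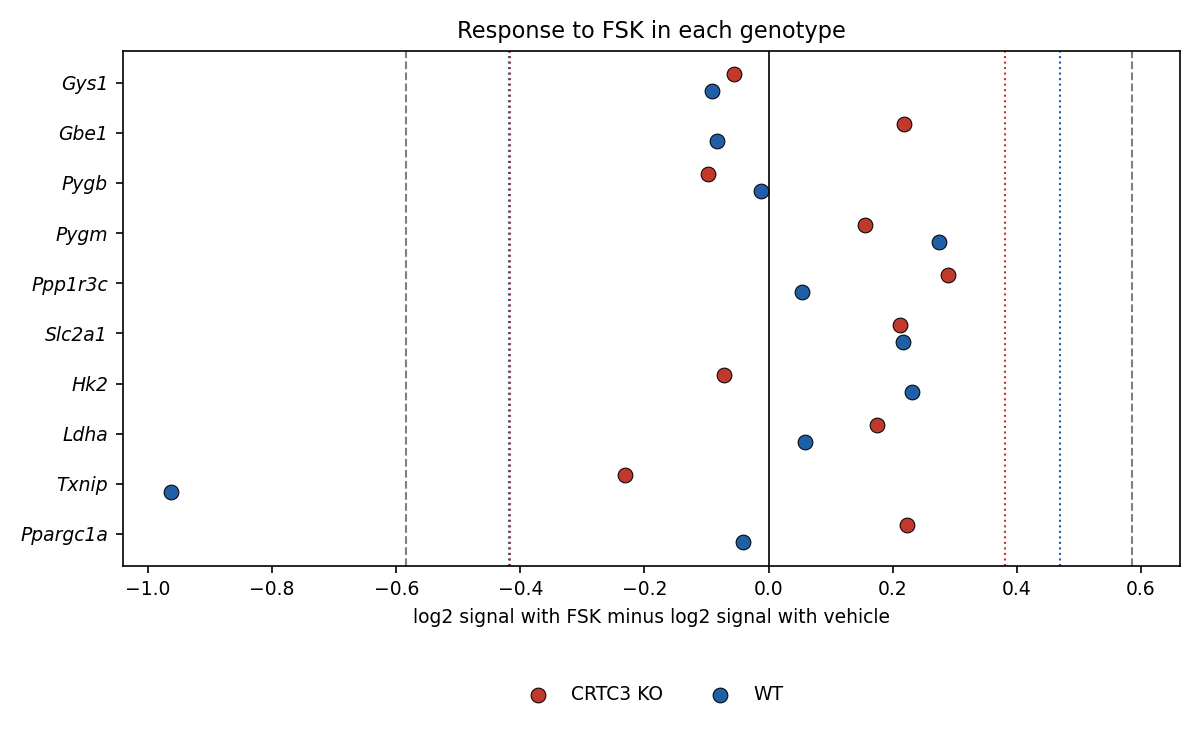
Response to FSK (horizontal axis, log2 signal with FSK minus log2 signal with vehicle) of the 10 genes in CRTC3 KO (red) and WT (blue), 1 array pair per point. Grey dashed lines mark a 1.5-fold difference and dotted lines the middle 95% of all genes in the genotype of that colour, and *Txnip* in WT, at -0.96, is the only point beyond them.

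None of the listed relatives and regulators of *Txnip* passed the 1.5-fold limit. Of 12 genes for alpha-arrestins, thioredoxins, thioredoxin reductases and glucose-sensing factors, 12 were measured, and 0 besides *Txnip* were called in any of the 5 quantities. Over all genes, 0.514% to 3.75% were called in each direction of a quantity. A count of 0 in a list this short is near those shares. *Arrdc4*, a close paralog of *Txnip* and a target of the same glucose sensors, had log2 signals of 7.52 and 7.72 in CRTC3 KO (FSK and vehicle) and of 7.40 and 7.33 in WT. Its response was -0.20 in CRTC3 KO and 0.07 in WT. *Arrdc3*, which encodes an alpha-arrestin of adrenergic receptor trafficking, had log2 signals of 9.59 and 9.05 in CRTC3 KO and of 9.39 and 8.83 in WT. It was higher with FSK in both genotypes by nearly the same size, 0.54 and 0.56, just under the 1.5-fold limit. Both arrestins were chosen for mention after their values were seen. The glucose-sensor genes *Mlxip*, which encodes MondoA, and *Mlxipl*, which encodes ChREBP, had responses of -0.0007 and -0.24 in CRTC3 KO and of -0.16 and -0.04 in WT. For their partner *Mlx* the responses were -0.15 in CRTC3 KO and -0.09 in WT. These 3 were likewise chosen after their values were seen.

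The gene profiles most like that of *Txnip* over the 4 arrays, by the distance between profiles centred on their own means, were those of *Klf10*, *Fhdc1* and *Mir9-1*. *Klf10* encodes a Krüppel-like transcription factor, *Fhdc1* a formin-like protein and *Mir9-1* a precursor of miR-9. *Klf10* had log2 signals of 8.99 and 9.18 in CRTC3 KO (FSK and vehicle) and of 8.05 and 8.67 in WT, at a distance of 0.243. Its response was -0.19 in CRTC3 KO and -0.62 in WT. *Fhdc1* had responses of -0.30 and -0.60 at a distance of 0.281, and *Mir9-1* had responses of -0.25 and -0.57 at a distance of 0.308. In all 3 genes the WT FSK array was the lowest, and in none was the response in WT as far below 0 as the -0.96 of *Txnip*. Likeness over 4 arrays rests on few points.

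**Figure D3:**
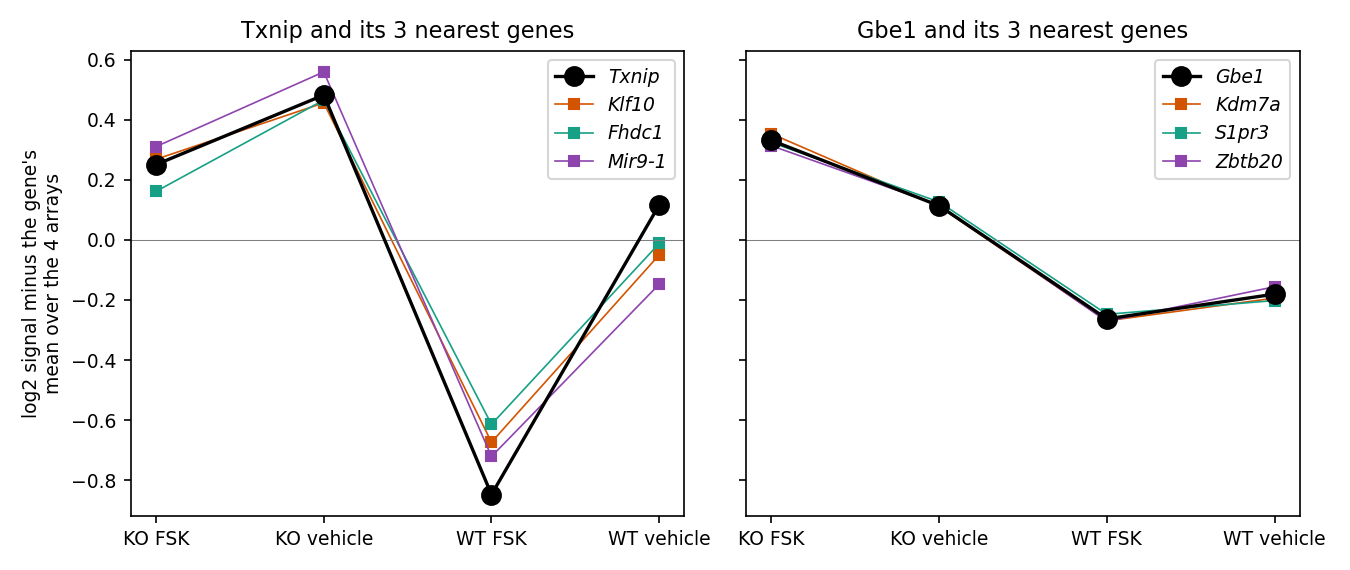
Log2 signal minus the gene's own mean over the 4 arrays (vertical axis) for *Txnip* (left) and *Gbe1* (right) in black and for the 3 genes with the nearest profiles in colour; lines join the arrays of 1 gene and carry no order. The 3 neighbours of *Txnip* lie within 0.308 of it in distance and are lowest on the WT FSK array, whereas those of *Gbe1* lie within 0.0314.

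*Gbe1* (chr16:70313949-70569720) encodes the branching enzyme of glycogen, which adds the side chains. The log2 signal was 7.94 with FSK and 7.72 with vehicle in CRTC3 KO astrocytes, against 7.35 with FSK and 7.43 with vehicle in WT astrocytes. Both CRTC3 KO arrays lay above both WT arrays. CRTC3 KO minus WT was 0.59 on the FSK arrays (1.51-fold) and 0.29 on the vehicle arrays, and the response was 0.22 in CRTC3 KO and -0.08 in WT. With FSK, *Gbe1* and *Txnip* were the 2 of the 10 genes called higher in CRTC3 KO, against 2.02% of all genes called higher, and 0 of the 10 were called lower, against 3.75%. *Gbe1* passed the 1.5-fold limit by little. After repeated quantile normalization its difference was 0.57 and the count was 1 instead of 2. It also lay inside the middle 95% of the 11993 genes whose signal reached the median over gene probe sets, a range which ends at 0.61. The profiles nearest to it belonged to *Kdm7a*, a histone demethylase gene, *S1pr3*, a sphingosine 1-phosphate receptor gene, and *Zbtb20*, a zinc finger factor gene. They differed between CRTC3 KO and WT with FSK by 0.62, 0.57 and 0.58.

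*Gys1* (chr7:45434839-45456617) encodes the glycogen synthase of brain and muscle. It had log2 signals of 7.85 and 7.91 in CRTC3 KO (FSK and vehicle) and of 7.90 and 7.99 in WT, and it was the steadiest of the 10 genes, with a span of 0.14. Its response was -0.055 in CRTC3 KO and -0.09 in WT. Of the 8 listed genes of glycogen synthesis 7 were measured. *Gbe1* and *Ugp2* were called higher in CRTC3 KO with FSK, as were 2.02% of all genes. *Ugp2*, whose enzyme makes the UDP-glucose that glycogen synthase uses, had log2 signals of 10.02 and 9.96 in CRTC3 KO and of 9.38 and 9.66 in WT. CRTC3 KO exceeded WT by 0.64 with FSK and by 0.30 with vehicle. Over the list, 3 of the 7 were higher in CRTC3 KO on the FSK arrays, against 49.8% of all genes, with a median difference of -0.05. On the vehicle arrays 5 of the 7 were higher, against 51.7% of all genes, with a median of 0.16. None was called with vehicle, and 0 of the 7 genes were called in the response of either genotype. Over all genes, 1.26% were called higher and 2.00% lower with vehicle, and 0.514% to 1.23% per direction in the responses.

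The phosphorylase genes showed no called difference. *Pygb* (chr2:150786796-150831748) encodes the brain form of glycogen phosphorylase. It had log2 signals of 9.58 and 9.68 in CRTC3 KO (FSK and vehicle) and of 9.49 and 9.50 in WT, with responses of -0.10 and -0.01. *Pygm* (chr19:6384408-6398464), the muscle form, which astrocytes are also known to hold, had log2 signals of 4.56 and 4.41 in CRTC3 KO and of 4.66 and 4.39 in WT. It lay below the median of gene probe sets, 5.81, on all 4 arrays, whereas the other 9 genes lay above it on all 4, so its responses of 0.15 and 0.27 are those of a dim probe set. Of the 11 listed genes of glycogen breakdown 10 were measured and 0 were called in any of the 5 quantities. Over all genes, 0.514% to 3.75% were called per direction and quantity, so 0 of the 10 is near the background. On the FSK arrays 8 of the 10 were higher in CRTC3 KO, against 49.8% of all genes. Their median difference was 0.20, against -0.0001 over all genes. On the vehicle arrays 9 of the 10 were higher, against 51.7% of all genes, with a median of 0.18 against 0.01. The astrocyte markers had medians of 0.52 and 0.47 in the same 2 comparisons, and the part of cell mix was not tested. *Phkg1*, which encodes a catalytic subunit of phosphorylase kinase, had log2 signals of 7.27 in CRTC3 KO and 6.68 in WT with FSK. The difference of 0.584958 fell below the limit of 0.584963 in the sixth decimal only, so that it was not counted; it was chosen after its value was seen.

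*Ppp1r3c* (chr19:36731731-36736604) encodes PTG, the subunit that brings protein phosphatase 1 to glycogen and so turns glycogen synthase on. On the arrays its log2 signal was 7.89 with FSK and 7.60 with vehicle in CRTC3 KO, against 7.57 with FSK and 7.52 with vehicle in WT. The CRTC3 KO FSK array was the highest and the other 3 lay close together. The response of 0.29 in CRTC3 KO was the largest positive one of the 10 genes in that genotype, against 0.05 in WT, and CRTC3 KO exceeded WT by 0.32 with FSK and by 0.08 with vehicle. None of these was called. Of the 11 listed genes for phosphatase targeting subunits, laforin, malin and glycogen synthase kinases, 10 were measured. Against 0.514% to 3.75% of all genes called per direction and quantity, 0 of these 10 were called in any. The median response over these was 0.08 in CRTC3 KO and 0.07 in WT, and 0.15 and 0.05 over the 5 that reached the median of gene probe sets.

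*Slc2a1* (chr4:119108745-119137330), which encodes the glucose transporter GLUT1, was higher with FSK than with vehicle by similar amounts in both genotypes. Its log2 signal was 10.49 with FSK and 10.28 with vehicle in CRTC3 KO, against 10.35 with FSK and 10.14 with vehicle in WT. The response was 0.21 in CRTC3 KO and 0.22 in WT, and the difference between them was -0.0045. A second probe set of *Slc2a1*, below the median of gene probe sets on all 4 arrays, gave responses of 0.25 and 0.21. For CRTC3 KO minus WT it had the other sign, at -0.10 with FSK and -0.14 with vehicle, where the brighter probe set gave 0.14 and 0.14. Neither probe set was called. Of the 10 listed glucose transporter genes 10 were measured, with a median response of 0.20 in CRTC3 KO and 0.16 in WT. With FSK 0 of them were called in either genotype, against 0.514% to 1.23% of all genes per direction. Over the 8 transporter genes that reached the median of gene probe sets, the median response was 0.07 in CRTC3 KO and 0.16 in WT. *Slc2a3*, which encodes the neuronal transporter GLUT3, had responses of 0.25 in CRTC3 KO and 0.55 in WT. *Slc2a12* was the only transporter gene called, at 0.76 for CRTC3 KO minus WT on the FSK arrays, from a probe set below the median on all 4 arrays. Of all genes, 2.02% were called higher in that comparison. *Slc2a3* and *Slc2a12* were chosen after their values were seen.

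*Hk2* (chr6:82725025-82774454) encodes the hexokinase that traps glucose in the cell and is found at the mitochondrial surface. It had a log2 signal of 8.06 with FSK and 8.13 with vehicle in CRTC3 KO, against 8.35 with FSK and 8.12 with vehicle in WT. The vehicle arrays were nearly equal, and the WT FSK array was the highest. The response was -0.07 in CRTC3 KO and 0.23 in WT, and the difference between CRTC3 KO and WT was -0.30 with FSK. Of the 22 listed genes of hexokinases and glycolysis 17 were measured. With FSK 0 of these were called in either genotype, against 0.514% to 1.23% of all genes per direction. Between the genotypes *Pfkfb3*, whose product makes the fructose 2,6-bisphosphate that speeds glycolysis, was the only 1 called. It was higher in CRTC3 KO, as were 2.02% of all genes with FSK and 1.26% with vehicle. CRTC3 KO exceeded WT by 0.63 with FSK and by 0.65 with vehicle, with log2 signals of 7.94 and 7.81 in CRTC3 KO (FSK and vehicle) and of 7.31 and 7.16 in WT.

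*Ldha* (chr7:46842274-46855627) encodes the A subunit of lactate dehydrogenase, which makes lactate from pyruvate. Its log2 signal was 7.38 with FSK and 7.21 with vehicle in CRTC3 KO, against 7.59 with FSK and 7.53 with vehicle in WT. Both CRTC3 KO arrays lay below both WT arrays, with differences of -0.20 with FSK and -0.32 with vehicle. The response was 0.17 in CRTC3 KO and 0.06 in WT, inside the middle 95% of all genes in each, and the window of *Ldha* was the 1 with a full CRE. *Ldhb*, the gene of the other subunit, differed the other way between the genotypes, with log2 signals of 9.46 and 9.49 in CRTC3 KO and of 9.03 and 8.91 in WT. It was chosen after its values were seen.

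Of the 15 listed genes of lactate and pyruvate handling 14 were measured, and 9 of these were higher in the FSK-treated CRTC3 KO cells than in WT, with a median difference of 0.10 over the list. On the vehicle arrays 11 were higher, with a median of 0.32. Over all genes, 49.8% were higher in CRTC3 KO with FSK (median -0.0001) and 51.7% with vehicle (median 0.01). The astrocyte marker medians were 0.52 and 0.47 in these comparisons, and the part of cell mix was not tested. On the FSK arrays 2 of the 14 were called higher and 1 lower in CRTC3 KO, against 2.02% and 3.75% of all genes. With vehicle 2 were called higher and 0 lower, against 1.26% and 2.00%. In the WT response 1 was called higher and 1 lower, against 1.23% and 0.757%. In the difference between the responses 1 was called higher, against 2.07%. *Pdk4*, which encodes a kinase that shuts pyruvate dehydrogenase, had log2 signals of 8.20 and 7.97 in CRTC3 KO (FSK and vehicle) and of 6.76 and 7.47 in WT. As for *Txnip*, the WT FSK array was the lowest. Its response was 0.23 in CRTC3 KO and -0.70 in WT, and on the FSK arrays CRTC3 KO exceeded WT by 1.44. *Pcx*, which encodes pyruvate carboxylase, was higher in CRTC3 KO by 0.86 with FSK and 0.74 with vehicle. *Slc16a1*, the gene of the lactate transporter MCT1, was higher by 0.54 and 0.69. *Slc16a3*, the gene of the transporter MCT4, went the other way. Its response was 0.28 in CRTC3 KO and 0.62 in WT, and it was lower in CRTC3 KO with FSK (-0.69); it was chosen after its values were seen.

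*Ppargc1a* (chr5:51454249-52115853) encodes PGC-1alpha, a coactivator of mitochondrial genes whose transcription is driven by CREB in fasted liver. Its log2 signal was 8.04 with FSK and 7.82 with vehicle in CRTC3 KO, against 7.77 with FSK and 7.81 with vehicle in WT. The CRTC3 KO FSK array was the highest and the other 3 spanned little. The response was 0.22 in CRTC3 KO and -0.04 in WT, both inside the middle 95% of all genes. Of the 13 listed genes of the PGC-1 family, its partner factors and its targets 13 were measured, and 0 were called in any of the 5 quantities. Over all genes, the share called per direction and quantity was 0.514% to 3.75%. *Ppargc1b*, the gene of PGC-1beta, had responses of 0.16 in CRTC3 KO and 0.47 in WT on a probe set that passed the median of gene probe sets on the WT FSK array only, and it was chosen after its values were seen.

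Between the genotypes with vehicle, 0 of the 10 genes were called, against 1.26% of all genes called higher and 2.00% called lower. Of the 10, 8 were higher in CRTC3 KO, against 51.7% of all genes, and the median was 0.05. *Hk2* (0.0044) and *Ppargc1a* (0.0087) count among the 8, and after repeated quantile normalization they were at -0.02 and the count was 6. The values lay between the -0.32 of *Ldha* and the 0.37 of *Txnip*. With FSK, 6 of the 10 were higher in CRTC3 KO, against 49.8% of all genes, and the median was 0.11. These differences stand beside those of the cell type markers, whose medians were 0.52 and 0.47 for astrocytes and -1.07 and -0.88 for fibroblasts and mural cells (FSK and vehicle), and the part of cell mix in them was not tested. The marker medians moved little with FSK within a genotype: 0.08 and 0.03 for astrocytes and -0.11 and 0.03 for fibroblasts and mural cells, in CRTC3 KO and WT.

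**Figure D4:**
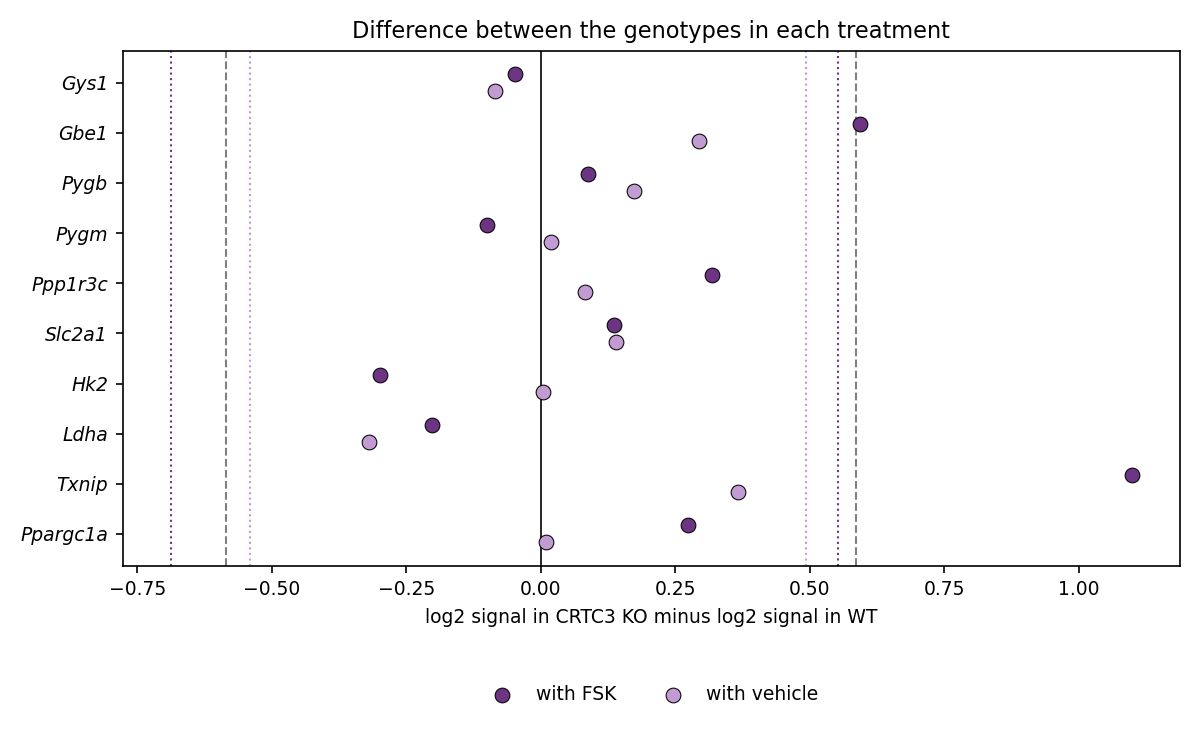
Difference between CRTC3 KO and WT (horizontal axis, log2 signal in CRTC3 KO minus log2 signal in WT) of the 10 genes with FSK (dark) and with vehicle (pale), 1 array pair per point. Grey dashed lines mark a 1.5-fold difference and dotted lines the middle 95% of all genes in that treatment; *Txnip* at 1.10 and *Gbe1* at 0.59 with FSK lie beyond both.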

How the data were processed

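Labeled cDNA was read by the authors on Affymetrix mouse 2.0 ST arrays, and probes were summarized by RMA in Affymetrix Expression Console, as the submitters' processing notes and the methods state. The deposited values are gene-level log2 signals, which span 1.42 to 13.1 here and have array medians of 5.48 to 5.50. RMA compresses differences at low signal. The Expression Console version, annotation build and probe filters were not given in the sources used here.

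Of 41345 probe sets, 23521 name 1 gene, 1820 several and 16004 none. Each of the 22180 genes is represented by the single-gene probe set with the highest mean over the 4 arrays. Differences of log2 signals were taken for 5 quantities: the FSK response in each genotype, CRTC3 KO minus WT in each treatment, and the difference between the responses. The comparison was by fold change, which the study's methods also used, with no test, and the number of arrays limits the precision. The calculation was run on simulated arrays with large set changes and very little noise. That run checks the arithmetic and not the reliability of the calls.

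The 10 genes and the gene lists (119 listed pathway genes in 10 lists, 109 measured, and 6 marker lists) were chosen with earlier results of these data known. Named besides the 10 were listed pathway genes past 1.5-fold in any quantity and not dim on every array (below the median over gene probe sets), up to 3 per list, *Crtc3*, and the 3 genes of smallest Euclidean distance to each of the 10 that spans at least 0.5. *Gfap* and *Xist* were named to describe the cultures. Other genes are marked as chosen after their values were seen. Alternatives were a second quantile normalization, median centring, a floor at the median, averaging the probe sets of a gene, fold limits of 1.3 and 2, and a background of brighter genes. Calculations ran in Python 3.11.15 (numpy 2.4.6, pandas 2.3.3) and plots in matplotlib 3.10.9.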

Additional observations from a re-analysis of the deposited data

Results flagged for a closer look

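In 3 of the 10 genes the single responses to FSK had opposite signs in CRTC3 KO and WT. For *Gbe1* the response in CRTC3 KO minus that in WT was 0.30, for *Hk2* it was -0.30 and for *Ppargc1a* it was 0.26. Each rests on 4 arrays, and the difference was not tested. Opposite signs were the more common case among all genes, with 11200 of 22180 genes (50.5%) against 30.0% of the 10.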

How the results depend on the processing

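The 50 differences of the 10 genes moved by less than the spread between probe sets of 1 gene under each of the 4 other ways of scaling, flooring or summarizing the signals, and 0 called values changed sign. That spread, a standard deviation, was 0.26 to 0.39 by quantity, larger than many of the differences themselves. A small difference could thus vanish and still count as moving by less. Repeated quantile normalization moved the differences by at most 0.07 and median centring by at most 0.02 on the log2 scale. The floor moved the WT response of the dim gene *Pygm* by 0.27, to 0.00, and the mean of both probe sets moved *Slc2a1* by at most 0.14. Of the counts of called genes, that between CRTC3 KO and WT with FSK was 1 instead of 2 under repeated quantile normalization and also 1 at a 2-fold limit, in both cases *Txnip* without *Gbe1*, whose difference was 0.57 after that normalization. At 2-fold the count was 0 instead of 1 for the WT response and 0 instead of 1 for the difference between the responses. At 1.3-fold each count was the same. Over the brighter genes alone, the background share of genes called higher was 0.342% and lower 0.309% in the CRTC3 KO response, and 1.21% and 1.31% in the difference between the responses. No replicate could be left out, since each condition has 1 array, and the detection of a gene could be judged by its signal only.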

Other observations

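Of 7 genes of gluconeogenesis, all measured, *Pck2*, which encodes the mitochondrial form of phosphoenolpyruvate carboxykinase, was the only 1 called, and it was lower in the FSK-treated CRTC3 KO cells, as were 3.75% of all genes. Its log2 signal was 7.54 with FSK and 7.84 with vehicle in CRTC3 KO, against 8.22 and 8.13 in WT, a difference of -0.68 with FSK and -0.29 with vehicle. Of 10 listed target genes of the hypoxia factor HIF outside glycolysis, 9 were measured. *Ddit4*, which encodes an inhibitor of mTORC1, had log2 signals of 7.39 and 7.45 in CRTC3 KO (FSK and vehicle) and of 7.68 and 7.07 in WT. Its response was -0.06 in CRTC3 KO and 0.61 in WT, and it was the only 1 of the 9 called in WT, where 1.23% of all genes were called higher. It was also the only 1 called in the difference between the responses (-0.67), where 2.92% of all genes were called lower. *Vegfa*, the gene of the vascular growth factor, had a CRTC3 KO minus WT difference of -0.59 on the FSK arrays. It was the only 1 of the 9 called there, where 3.75% of all genes were called lower. Its responses were 0.11 in CRTC3 KO and 0.31 in WT. Over the 9 genes, responses had a median of 0.0036 in CRTC3 KO and 0.06 in WT.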
